A study of Homo sapiens with 16 samples.

Results

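Protein transport genes that lie outside ER to Golgi traffic and autophagy are described here, as the MDA231 pathway table of the study lists them. The genes were selected on that table: they are the genes named under the Gene Ontology terms protein transport or intracellular protein transport, without those also named under ER to Golgi vesicle-mediated transport or autophagy. This left 166 genes of the 2646 that the table names under any term. The union of the defining terms held 219 genes, from which 36 were removed as ER to Golgi genes and 17 as autophagy genes. Of the 166, 100 came from protein transport only, 63 from intracellular protein transport only, and 3 (TOM1, IPO4 and the readthrough gene ARPIN-AP3S2) from both.

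The study grew brain metastatic derivatives of 2 human breast cancer lines, MDA231 (a triple-negative line) and HCC1954 (a line with ERBB2 amplification), in mouse brains for 30 days. The mice of all groups received 5-fluorocytosine at 250 mg/kg, and brains were taken 12 hours later. The design text calls the method Flura-seq, in which cells that carry a cytosine deaminase turn the compound into a uracil analogue that enters new RNA. Poly(A) RNA was recovered with oligo(dT) beads, and the labelled RNA was then precipitated with anti-BrdU antibody, 2.5 µg for the RNA of each brain. The labels give 16 libraries in 4 groups of 4: HCC1954 input, HCC1954 IP, MDA231 input and MDA231 IP. They give no transgene, mouse strain, age or clone, and they do not say whether each library came from its own mouse.

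What the table measures is membership in a gene list, not expression. Of 16792 background genes, 3626 were in the MDA231 list, which is 21.6%, and 2646 were named in at least 1 listed term, which is 15.8%. The sources used here do not say how the listed genes were chosen, nor whether they were higher or lower in IP than in input. No value per library was analysed, so no level, replicate error or library depth stands behind the counts, and the labelled cell lines could not be checked against marker genes. A gene that is not named may still be in the list, since 3626 genes were listed and 2646 were named. All values of the defining terms chose the genes and are given as a description.

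Proteins leave the endosome by several routes. Retromer, sorting nexins and the WASH complex carry cargo back to the Golgi or the plasma membrane, while ESCRT complexes sort ubiquitinated cargo into the lumen for the lysosome. Adaptor complexes and clathrin select cargo into vesicles, Rab GTPases mark each membrane and recruit tethers such as the exocyst, and SNARE proteins fuse the vesicle with its target. Nuclear pores, importins and exportins move proteins across the nuclear envelope, and separate translocases insert them into the ER and mitochondria.

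The promoters of 5 of these genes are shown because they hold the palindrome TCACGTGA, the core of the CLEAR element that the lysosomal regulator TFEB binds, upstream of the start. The sequences are from RefSeq on GRCh38.p14, read 5′ to 3′ on the gene's strand, and the capitals mark the first copy of the palindrome. CTSA (protective protein cathepsin A), RAB3GAP2 (a Rab3 and Rab18 regulator subunit), RABGAP1 (a Rab GTPase activating protein), TOM1 (a ubiquitin-binding endosomal adaptor) and WASHC2C (a WASH complex subunit) sit on 4 routes, with RAB3GAP2 and RABGAP1 on the same one.
CTSA, chr20:45891269-45891334, plus strand: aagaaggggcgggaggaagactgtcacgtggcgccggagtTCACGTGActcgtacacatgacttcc
RAB3GAP2, chr1:220272506-220272593, minus strand: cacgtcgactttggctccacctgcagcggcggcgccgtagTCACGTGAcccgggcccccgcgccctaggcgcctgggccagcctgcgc
RABGAP1, chr9:122940943-122941019, plus strand: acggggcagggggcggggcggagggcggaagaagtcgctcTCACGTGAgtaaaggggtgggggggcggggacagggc
TOM1, chr22:35299814-35299893, plus strand: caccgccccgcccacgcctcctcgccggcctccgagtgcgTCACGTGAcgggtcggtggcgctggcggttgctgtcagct
WASHC2C, chr10:45727151-45727238, plus strand: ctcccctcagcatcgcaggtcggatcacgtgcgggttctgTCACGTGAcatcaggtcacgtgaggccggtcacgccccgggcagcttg

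The palindrome began 26 bases before the start in CTSA, 37 in RABGAP1, 40 in TOM1, 75 in WASHC2C and 100 in RAB3GAP2. ARFGEF2, an exchange factor for Arf GTPases, held it after the start. WASHC2C held 3 copies of the shorter E-box CACGTG that the palindrome contains. Its last copy lies in a further full palindrome, which stands in lower case after the marked one. Of the 166 genes, 134 matched a promoter of 250 bases before to 50 after the start. The palindrome was in 6 of these 134, or 4.48% (exact 95% binomial interval 1.66 to 9.49%), in 2.51% of the 2195 promoters of all genes named in the MDA231 table, and in 0.978% of the 27305 promoters of the RefSeq table. A match describes letters in a window and says nothing of binding.

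Other short motifs were searched on both strands in the same windows. The E-box CACGTG was in 15.7% of transport promoters, 10.8% of those of all named genes and 7.19% of all promoters. GGGCGG, the SP1 box, was in 68.7%, 71.7% and 43.4%, and TGACG, the core of the cAMP response element, in 39.6%, 37.3% and 24.3%. CCGGAA, an ETS core, was in 26.9%, 33.0% and 17.3%, and TGCGCA, part of the NRF1 palindrome, in 17.2%, 14.2% and 8.12%. CCAAT was in 33.6%, 36.8% and 35.4%. The TATA box TATAAA was in 2 transport promoters, 1.49% (interval 0.181 to 5.29%), beside 5.15% of all named genes and 12.3% of all promoters. For each of the 8 motifs the exact 95% interval of the transport genes held the share of all named genes, which include them. With 100 bases before the start in place of 250, this was so for 7 of the 8. It was not so for the E-box, at 12.7% (interval 7.57 to 19.5%) beside 6.79% of all named genes. The genes were selected, not sampled, and no correction was made for the number of motifs, so nothing is read from that difference. In that window TGACG (24.6% beside 24.9%) and TGCGCA (8.21% beside 9.93%) were below all named genes and GGGCGG (61.9% beside 58.7%) above, the opposite order to the longer window.

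**Figure D1:**
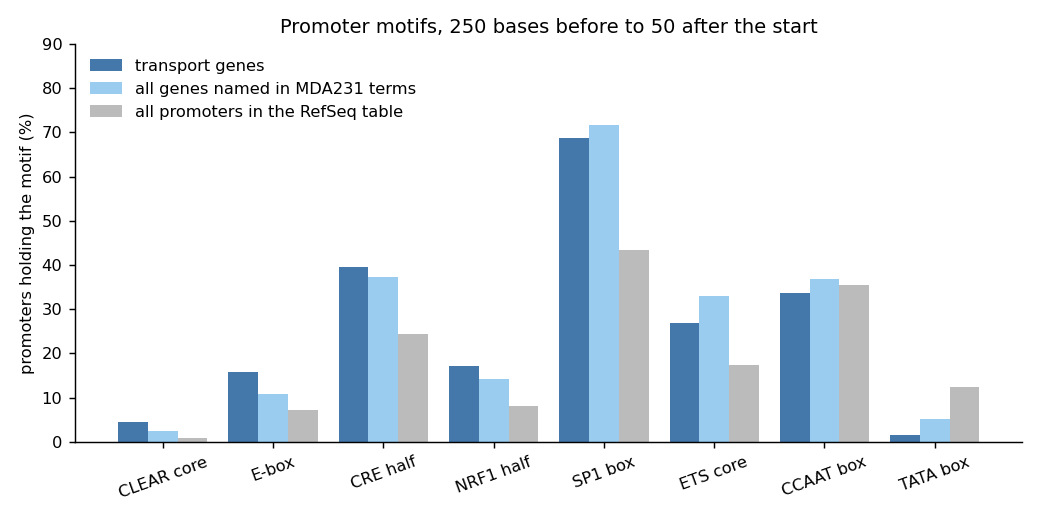
Share of promoters (%) that hold each of 8 motifs, for 134 transport genes, 2195 genes named in the MDA231 table and all 27305 RefSeq promoters. The SP1 box is the commonest among the transport genes, at 68.7%, and the TATA box the rarest, at 1.49%.

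The defining terms were among the strongest of the MDA231 table. In the authors' deposited table, protein transport held 136 listed genes of 395 in the background (34.4%, 1.59-fold, Benjamini adjusted p = 1.22e-05). Intracellular protein transport held 87 of 236 in the authors' deposited table (36.9%, 1.71-fold, adjusted p = 0.000235). Only 4 genes were in both, before removal. An adjusted p under 0.05 was reached by 15 of the table's 314 terms, which is 4.78%.

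The 166 genes fell into 9 routes, assigned by hand from what each protein is known to do. Positions below are those of GENCODE 29 on GRCh38, for the whole gene. Rab GTPases and their regulators were the most numerous, with 31 genes (18.7%). Endosome and lysosome genes numbered 23, sorting nexins with retromer and WASH genes 21, adaptors and clathrin 20, and exocyst, SNARE and secretion genes 17. Another 16 acted in translocation at the ER, Golgi or mitochondria, 13 in nuclear transport and 9 with Arf GTPases, motors or cilia, and 16 fitted none of these. The name "outside ER to Golgi" holds only in the sense of the term removed. SEC61A1, TRAM1, STX18, RINT1, YIPF5 and the cargo receptors TMED1, TMED4 and TMED5 act at the ER or Golgi, and ATG16L1, an autophagy protein, was listed under macroautophagy.

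**Figure D2:**
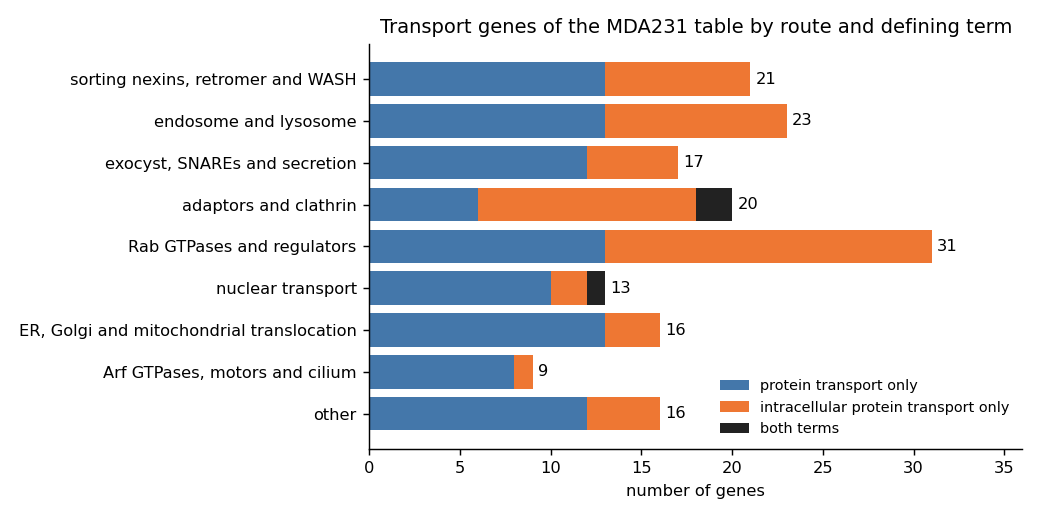
Number of transport genes on each of 9 routes, split by the defining term that named them. Rab GTPases and regulators hold 31 genes, and the 3 genes from both terms sit with the adaptors and with nuclear transport.

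Sorting nexins bind phosphoinositides on endosomes, and 12 of the 30 sorting nexin genes of GENCODE 29 were named in the table, all 12 of them transport genes. SNX1 (ENSG00000028528, chr15:64094123-64146090) and SNX2 (ENSG00000205302, chr5:122774996-122830108), which are part of the membrane-bending coat that works with retromer, were named in 6 and 7 terms. They shared 4 of the 7 further terms that name either, among them retrograde transport from endosome to Golgi and cell-cell adhesion. SNX1, SNX2, SNX4, SNX7, SNX11, SNX12 and SNX30 were all under vesicle organization, with the adaptor EPS15. These made 8 of the 12 listed genes of that term, which the authors' deposited table gives as 1.98-fold with an adjusted p of 0.774. SNX3, which recruits retromer for Wntless recycling, and SNX12 were under negative regulation of protein transport, where the authors' deposited table lists 5 of 5 background genes (4.63-fold, adjusted p = 0.572).

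WLS, the Wnt carrier that retromer recycles, was also a transport gene. SNX17, a cargo adaptor of the retriever complex, was named with the retriever subunit VPS26C and with CCDC93 of the associated CCC complex. SNX14, SNX15 and SNX21 completed the sorting nexins. The retromer core itself was absent from the named genes: VPS26A, VPS26B, VPS29 and VPS35 appear under none of the 314 terms. Of 7 sorting nexins listed with retromer, SNX1, SNX2 and SNX3 were named, and SNX5, SNX6, SNX27 and SNX32 were not. WASHC2A, WASHC2C and WASHC5, of the actin-nucleating WASH complex, were named (WASHC2A and WASHC2C share most of their sequence), and WASHC1, WASHC3 and WASHC4 were not. ANKRD50, DNAJC13 and ENTR1, proteins linked to retromer or WASH, made up the rest of the 21.

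Endosome and lysosome genes included 3 subunits of the ESCRT-III group, CHMP1A, CHMP7 and IST1, which constrict membrane necks. CHMP1A (chr16:89644431-89657845) was in 7 terms and CHMP7 (chr8:23243637-23262000) in 5. All 3 were under multivesicular body assembly, with 15 of 31 background genes in the authors' deposited table (2.24-fold, adjusted p = 0.395). CHMP7 was also under nuclear envelope reassembly and exit from mitosis, and CHMP1A and IST1 under cell division. Other ESCRT genes were named but not kept. All 3 ESCRT-II genes (SNF8, VPS25 and VPS36) and CHMP4A stood under other terms. CHMP2A, CHMP4C, HGS, MVB12A, STAM2, VPS37A, VPS37C and VPS4A were removed as autophagy genes. Named anywhere were 2 of 3 ESCRT-0 genes, 3 of 9 ESCRT-I genes and 7 of 14 genes of ESCRT-III with VPS4. STAM, TSG101, VPS28, CHMP4B and VPS4B were among the ESCRT genes not named. PDCD6, a calcium-binding partner of ESCRT, was in 5 terms, among them regulation of caspase-type proteases and of TOR signalling.

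VPS8, TGFBRAP1 and VPS16 are subunits of the tethers CORVET or HOPS, which act in endosome and lysosome fusion. VPS8 and TGFBRAP1, both of CORVET, were under endosomal vesicle fusion with RBSN (rabenosyn-5, a Rab effector). That term held 7 of 9 background genes in the authors' deposited table (3.60-fold, adjusted p = 0.457). The shared subunit VPS18 and the HOPS subunit VPS41 were removed as autophagy genes. VPS45, the SNARE regulator that binds rabenosyn-5, and VPS50, the subunit that distinguishes the EARP tether, were named. The other GARP and EARP subunits VPS51, VPS52, VPS53 and VPS54 were not.

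EHD1 (chr11:64851642-64888296), an ATPase of endocytic recycling, was in 6 terms, among them endocytic recycling, cell-cell adhesion and neuron projection development. SNAPIN (chr1:153658654-153661830), a subunit of BLOC-1, which acts in making lysosome-related organelles, and RHOB (chr2:20447074-20449445), a small GTPase of endosomes, were also in 6. SNAPIN was the only transport gene among the 6 BLOC-1 genes named of 8. The route also held HOOK1, HOOK2 and FHIP1B, which link endosomes to dynein, and MON2 and DOP1B, which act together at the trans-Golgi. CTSA, HID1, PLEKHF2, SCAMP1 and UNC93B1, the carrier of endosomal Toll-like receptors, completed the 23.

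The exocyst tethers secretory vesicles to the plasma membrane. EXOC2, EXOC3, EXOC4, EXOC6 and EXOC8 were named, 5 of the 9 exocyst genes (55.6%, beside 15.8% of background genes), all of them transport genes. EXOC1, EXOC5, EXOC6B and EXOC7 were not. EXOC4, EXOC6, SCFD2, SYTL2 and VPS45 were among the 13 listed genes of vesicle docking involved in exocytosis. The authors' deposited table gives that term 2.32-fold and an adjusted p of 0.460. CADPS2 (a priming factor for dense-core vesicles) and EXPH5 (a Rab27 effector) were under positive regulation of exocytosis with RAB2B and RAB9A, a term of 13 listed genes of 21 in the authors' deposited table (2.87-fold, adjusted p = 0.109).

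Of the fusion machinery, STX3 and STX4, syntaxins of the plasma membrane, STX18, a syntaxin of the ER, and SNAP23 and SNAP29, which supply SNARE helices, were named. They were all under membrane fusion, 5 of its 16 listed genes, with 1.68-fold and an adjusted p of 0.842 in the authors' deposited table. STX4 (chr16:31032889-31042975) was in 5 terms, the most of this route. SNAP23 and SNAP29 had the same 3 further terms. SYTL2 is a Rab27 effector, ERC1 scaffolds exocytic sites, and RINT1 tethers Golgi to ER vesicles. The neuronal syntaxin STX1A, which is not named in MDA231 terms, was named under secretion by cell in HCC1954.

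Adaptor complexes were each represented by part of their subunits. AP1G1, AP1S1 and AP1S2 of AP-1 (trans-Golgi and endosome) made 3 of 8, AP2M1, the cargo-binding subunit of AP-2 (endocytosis), 1 of 5, and AP3D1 and AP3S2 of AP-3 (lysosome-related organelles) 2 of 7. AP4S1 was the AP-4 gene named of 4, and 0 of 4 AP-5 genes were named. The 3 AP-1 genes and AP2M1 were under antigen presentation by MHC class II, with KLC1. In the authors' deposited table that term held 27 of 92 background genes (1.36-fold, adjusted p = 0.951). AP3D1 and AP3S2 had the same 3 further terms, among them anterograde axonal transport, which SNAPIN shared. AP1S1 (chr7:101154400-101161596) was in 5 terms.

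The monomeric adaptors GGA2 and GGA3, which carry sorting receptors from the trans-Golgi, and TOM1, TOM1L1 and TOM1L2, which bind ubiquitinated cargo, made 5 of a list of 6, and GGA1 was not named. EPS15 (chr1:51354263-51519328), an endocytic scaffold, was in 5 terms, among them endocytic recycling and cell-cell adhesion. CLTB, a clathrin light chain, was the clathrin gene named of 4. AAGAB, a chaperone of adaptor assembly, AP1AR, CCDC91, NECAP1 and SYNRG, accessory proteins of the adaptors, and ARPIN-AP3S2 completed the 20. Vesicle-mediated transport named 10 genes of this route and 17 transport genes in all, of 48 listed genes in the authors' deposited table (1.46-fold, adjusted p = 0.461).

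Rab GTPases cycle between a GTP-bound form on membranes and a GDP-bound form. RAB2B, RAB3D, RAB4B, RAB5C, RAB9A, RAB17, RAB23 and RAB25 were transport genes. Anywhere in the table, 18 of the 63 Rab genes (28.6%) were named, beside 15.8% of background genes. RAB5C acts on early endosomes, RAB4B, RAB17 and RAB25 in recycling, RAB9A in return from late endosomes, RAB3D in secretion and RAB23 at cilia. All 8 stood under small GTPase mediated signal transduction. CHM, an escort protein for Rab prenylation, joined them there and was also listed under oxidation-reduction process. The small GTPase term gave 66 listed genes of 246 in the authors' deposited table (1.24-fold, adjusted p = 0.849), 13 of them transport genes.

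Genes annotated as activators of GTPase activity formed a block of 16. TBC domain proteins switch Rabs off by activating GTP hydrolysis, and the genes annotated to this activity stood together. They were EVI5, GRTP1, RABGAP1, RABGAP1L, RUNDC1, USP6NL, TBC1D8, TBC1D8B, TBC1D9, TBC1D9B, TBC1D10A, TBC1D10B, TBC1D13, TBC1D14, TBC1D15 and TBC1D22B. They made 16 of the 17 listed genes of regulation of vesicle fusion, which the authors' deposited table gives 43 background genes, 1.83-fold and an adjusted p of 0.643. The same genes made 16 of 26 listed genes of activation of GTPase activity in the authors' deposited table (1.52-fold, adjusted p = 0.766). Of them 11 also stood under regulation of cilium assembly, 18 of 37 background genes in the authors' deposited table (2.25-fold, adjusted p = 0.174).

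Within this block, TBC1D10A (ENSG00000099992, chr22:30291990-30327046) was in 8 terms, EVI5 (chr1:92508696-92792404) in 7, and TBC1D10B (chr16:30357102-30370264) and USP6NL (chr10:11453946-11611754) in 6. EVI5, which also acts in cytokinesis, was under cell division and cell cycle, and RABGAP1 under cell cycle. The positive regulators were DENND1A, DENND1B and DENND4C, DENN domain exchange factors. They were 3 of the 4 DENND genes named of 17 (23.5%, beside 15.8% of background genes). DENND1A and DENND1B, which activate Rab35, were under endocytic recycling with EHD1, EPS15, RAB17, SNX4 and VPS50. This gave 7 of its 13 listed genes, at 2.51-fold with an adjusted p of 0.313 in the authors' deposited table. RAB3GAP2 and RAB11FIP1, a Rab11 effector, were also on this route.

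Nuclear transport genes split into a pore block and single carriers. The pore genes AAAS (chr12:53307456-53324864), NDC1 (chr1:53765460-53838860), NUP43 (ENSG00000120253, chr6:149724315-149749665), NUP160 (chr11:47778087-47848555) and NUP210 (chr3:13316235-13420309) were in 7, 7, 10, 8 and 7 terms. NDC1 and NUP210 span the membrane, and NUP43 and NUP160 belong to the Y complex that also binds kinetochores. These 5 stood together under 6 further terms: cellular response to heat, protein sumoylation, glucose transport, tRNA export, nuclear envelope disassembly and viral process. The authors' deposited table gives the heat term 30 of 75 background genes (1.85-fold, adjusted p = 0.133). NUP43 and NUP160 were also under sister chromatid cohesion, and NUP43 under cell division and mitotic nuclear division. Another 8 of 28 pore genes were named under other terms only, among them NUP62, NUP93, NUP98 and RANBP2.

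Soluble carriers were named at about the share of all background genes, 15.8%. IPO4 and IPO7, importers of histones and ribosomal proteins, made 2 of 11 importin beta genes (18.2%), and XPO7 made 1 of 7 exportins (14.3%). None of the 6 Ran cycle genes listed, RAN and RCC1 among them, was named, and KPNA3 was the importin alpha gene named of 7. NMD3 and LSG1, which export and mature the large ribosomal subunit, DDX19B and NXT2, of mRNA export, and EIF4ENIF1, a carrier of eIF4E, were in 1 or 2 terms each.

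Translocation genes at the ER were SEC61A1, the channel subunit, TRAM1 and SERP1, which associate with it, and SIL1, the exchange factor of the chaperone BiP. SEC61A1 and SERP1 were under the IRE1-mediated unfolded protein response, 23 of 59 background genes in the authors' deposited table (1.81-fold, adjusted p = 0.453). The ER translocon and signal recognition list had 2 of 18 genes named, SEC61A1 and SRPRB. TIMM10B, TIMM17A, TIMM17B and TIMM50 act in import through the inner mitochondrial membrane, and COX18 inserts proteins into it. TIMM10B, TIMM17A and TIMM17B were under protein targeting to mitochondrion, 14 of 34 background genes in the authors' deposited table (1.91-fold, adjusted p = 0.730). GPR89A, GPR89B (Golgi pH regulators, near-identical copies of each other), PLEKHA8 and YIPF5, with the 3 TMED genes, completed the 16. GPR89A, GPR89B, TMED4 and WLS stood together under positive regulation of NF-kappaB signalling.

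Arf GTPases recruit coats at the Golgi, and ARF3 was the ARF gene named of 5, with the exchange factors ARFGEF1 and ARFGEF2. KLC1, a kinesin light chain, and SPIRE2, an actin nucleator for vesicle motility, stand for motors. LCA5, TTC8 (a subunit of the BBSome) and UNC119 carry cargo to cilia. KLC1 was in 4 terms, the most of these 9 genes.

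The remaining 16 genes held the most widely annotated. CDK5 (ENSG00000164885, chr7:151053812-151058530), a kinase of neurons and of vesicle traffic, was in 15 terms, most of them on phosphorylation, cell cycle and neurons. TNKS (ENSG00000173273, chr8:9555914-9782346), a poly(ADP-ribose) polymerase of telomeres and GLUT4 vesicles, was in 9. TNKS and ACD, a shelterin subunit in 4 terms, were under positive regulation of telomerase activity. PPID, a cyclophilin, was in 5 terms, and AKAP8, ATG16L1, COL1A1, PIK3R2, RAP1A and ZMAT3 were in 3. APPBP2, GPM6B, MVP (major vault protein), SELENBP1, SLC7A6OS and SLU7, a splicing factor, were in their defining term only.

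Each transport gene was named in a median of 3 terms (range 1 to 15), beside a median of 2 for all 2646 named genes. The transport genes had to be in a defining term, so this is a description. Of the 166, 39 (23.5%) were in 1 term, beside 39.6% of all named genes, and 127 (76.5%) in 2 or more, beside 60.4%. There were 47 in 4 or more, a count with no share of all named genes beside it. Outside the defining terms, 126 (75.9%) were in a further term, also without such a share. The share was highest for Rab GTPases and regulators, at 30 of 31, and lowest for nuclear transport, at 7 of 13. Terms share genes by construction, so a gene in many terms is still 1 entry of the gene list.

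**Figure D3:**
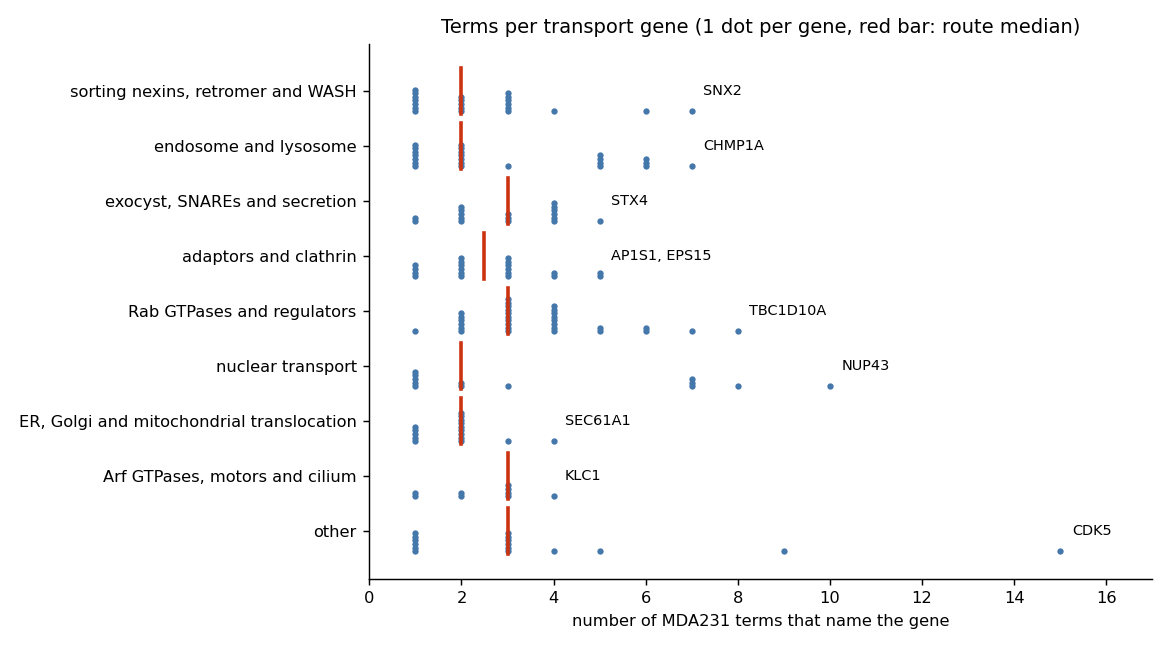
Number of MDA231 terms that name each transport gene, 1 dot per gene, with the median of each route as a red bar. CDK5 with 15 and NUP43 with 10 terms stand at the right, and route medians lie between 2 and 3.

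Some further terms drew on 1 route and others on several, and the routes were themselves assigned from known function. Regulation of vesicle fusion, activation of GTPase activity and regulation of cilium assembly drew their transport genes from the Rab route alone. Regulation of cellular response to heat, protein sumoylation and tRNA export drew theirs from nuclear transport alone. Retrograde transport from endosome to Golgi drew 11 genes from 5 routes, and endocytosis 13 genes from 5 routes. The authors' deposited table gives the retrograde term 23 of 69 background genes (1.54-fold, adjusted p = 0.798) and endocytosis 40 of 139 (1.33-fold, adjusted p = 0.860).

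**Figure D4:**
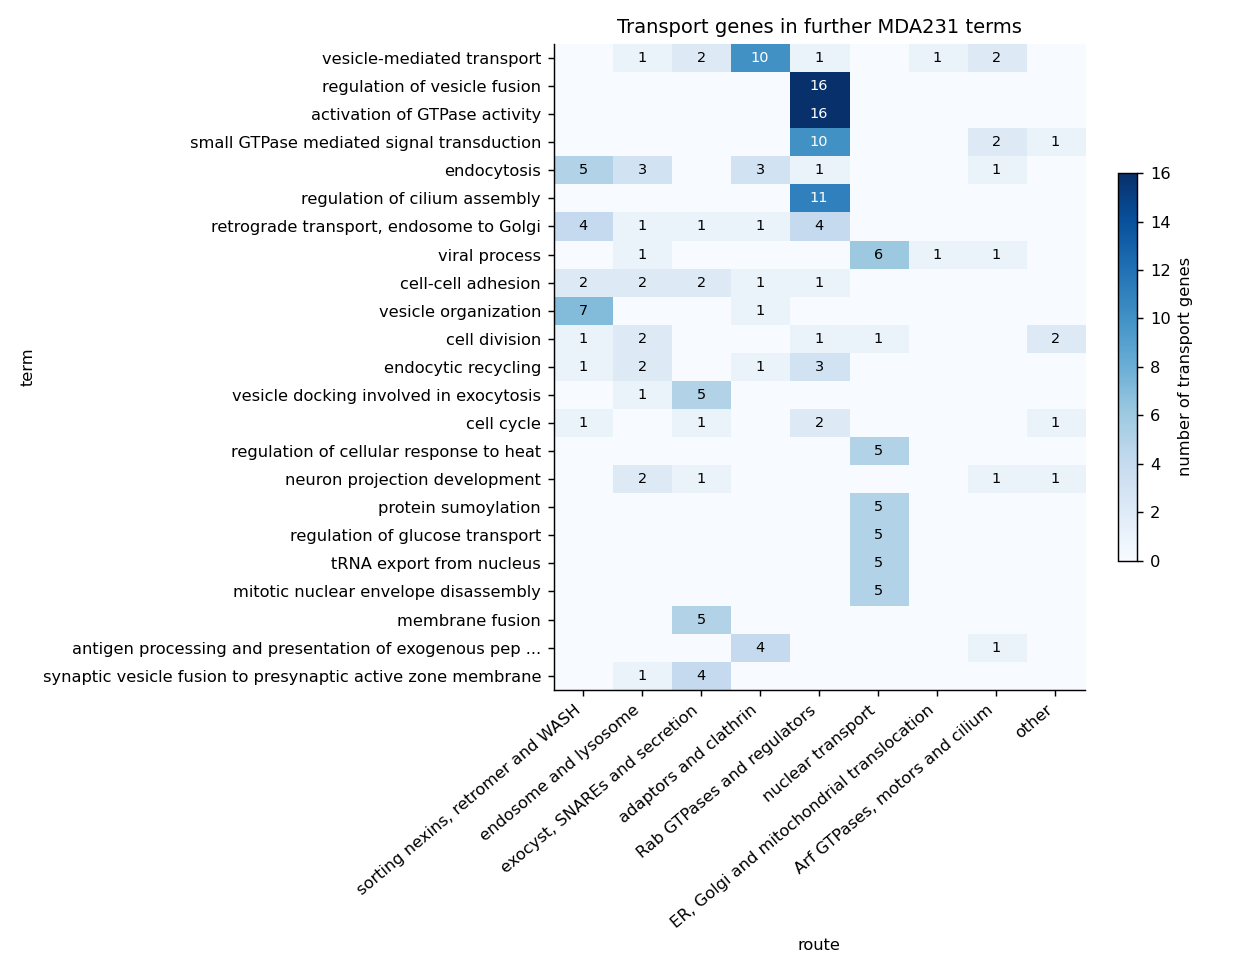
Number of transport genes (colour and digit) of each route in each further MDA231 term that holds 5 or more of them. The block of 16 genes annotated to GTPase activation and the block of 5 nuclear pore genes each fill several terms.

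Of the 11 terms with an adjusted p under 0.05 that neither defined nor removed genes, 6 named a transport gene, and 19 transport genes (11.4%) were in at least 1, beside 591 of all 2646 named genes (22.3%). All genes named in the table had to be in some term, and these terms name many of them, so nothing is read from that difference. Cell-cell adhesion held 8 of the 166, and they were 8 of its 86 listed genes: EHD1, EPS15, ERC1, EXOC3, IST1, SNX1, SNX2 and TBC1D10A. This was 4.82% of transport genes, beside 3.25% of all named genes. The authors' deposited table gives that term 1.47-fold with an adjusted p of 0.0462. Cell division held 7 of the 166, which were 7 of its 118 listed genes: CDK5, CHMP1A, ENTR1, EVI5, IST1, NUP43 and TNKS. This was 4.22%, beside 4.46% of all named genes. Its values in the authors' deposited table were 1.56-fold and an adjusted p of 0.000256. Cell cycle held 5 (3.01%, beside 2.87% of all named genes) and mitotic nuclear division 3 (1.81%, beside 3.06%). The DNA damage and protein phosphorylation terms held 1 each (0.602%), ZMAT3 and SNX15, beside 3.17% and 5.06% of all named genes. DNA repair, DNA replication, type I interferon signalling, fatty acid beta-oxidation and snRNA transcription named 0. In that order, these terms held 3.21%, 2.23%, 1.10%, 0.831% and 1.32% of all named genes.

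Counted over 36 lists of transport complexes, 120 of 307 genes (39.1%) were named in the table and 55 (17.9%) were transport genes. The share of all background genes named was 15.8%. The lists hold genes of transport terms, and terms were listed for their enrichment, so nothing is read from that difference. The same holds for single lists and for the sorting nexin, Rab and DENND families above. ESCRT-II was named in full, and retromer core, AP-5 and the Ran cycle not at all. COG, the Golgi tether, had 7 of 8 genes named, all of them among the ER to Golgi genes removed. Peroxisome import had 9 of 14 named, none under the defining terms.

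**Figure D5:**
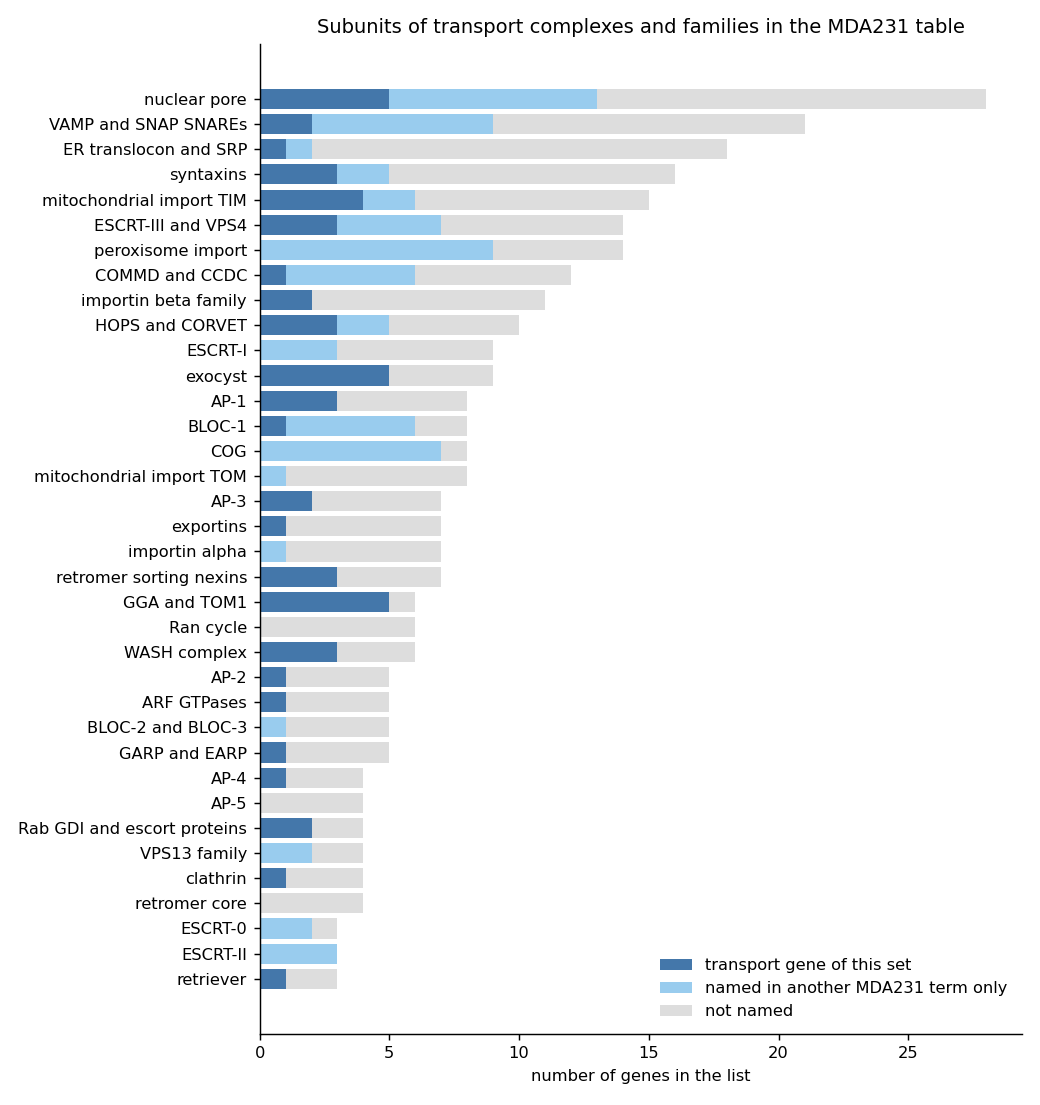
Number of genes in each of 36 fixed transport lists, split into transport genes (dark), genes named only in other MDA231 terms (light) and genes not named (grey). The nuclear pore list is the longest, with 13 of 28 named, and ESCRT-II is the list with all 3 named.

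Some of the genes share sequence with others, so that reads could be counted for either. Stretches of 32 bases from the GENCODE 29 transcripts of each gene were looked up in the transcripts of all other genes on the same strand. Only human transcripts were searched, so sharing with RNA of the mouse brain was not measured. At least 10% of stretches were shared in 25 of the 166 genes, and at least 50% in 7. WASHC2A (77.3%) and WASHC2C (69.9%) share mostly with each other, as do GPR89A (73.6%) and GPR89B (80.0%). ARPIN-AP3S2 (96.7%) overlaps AP3S2 (22.0%), and PIK3R2 (86.4%) and IPO4 (62.2%) overlap other annotated genes. RAB4B (40.9%), SNX15 (40.3%) and DDX19B (34.0%) were also among the 25. Whether these genes were listed on their own reads is uncertain, since how shared reads were counted is not given in the sources used here.

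In HCC1954 none of the 166 genes was named. The HCC1954 table named 30 genes in 37 terms, from a list of 66 genes, so the tables differ in length and the absence was not tested. Its 3 transport-related terms rest on other genes: TGFB1, APBB1 and ANKRD1 for positive regulation of protein secretion, STX1A and AXL for secretion by cell, and 5 genes for transport. The authors' deposited table gives these terms adjusted p-values of 0.867, 0.839 and 0.809.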

How the data were processed

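The labels describe 16 libraries of human MDA231 and HCC1954 cells in mouse brain, and the files analysed are 2 tables of enriched Gene Ontology terms, 1 per cell line. The submitters' processing notes name the tools STAR and HTSeq and the builds GRCh38 and GRCm38, with no version of either tool. Per the file headers, the authors deposited for each term the listed genes, their number and percent, a p-value with Bonferroni and Benjamini adjusted p-values, a fold enrichment (a ratio of the listed share to the background share) and a false discovery rate in percent. Which enrichment tool and test were run, and how genes entered the list, is not given in the sources used here.

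Genes were matched to GENCODE release 29 on GRCh38 by Ensembl identifier, and all 166 matched as protein coding. Counts of terms, routes and complexes were made in Python 3.11.15, with exact binomial intervals from SciPy 1.17.1, which cover counting error only. The search for shared stretches and motifs was tested on simulated sequences. Transport genes are named under their route, except a few that are not reported here and stay in the counts, with further values for the 20 genes in the most terms (ties by name) and for members of the complex lists. The members, the routes and the complex lists were chosen with earlier results of these data known, and no test was run. Protein sequences were not used here.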

Additional observations from a re-analysis of the deposited data

How the results depend on the processing

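The tables hold terms of 1 gene list per line, so no direction, level or error per gene can be given, and no library could be left out. No paired analysis was possible because the files used hold no value per library. The number of transport genes was 103 from protein transport alone, 66 from intracellular protein transport alone and 3 from both. It was 219 without removal, 183 with ER to Golgi genes removed only, 147 with every Golgi, autophagy and mitophagy term removed and, chosen after seeing the data, 141 without genes that share at least 10% of stretches. The median of 3 terms per gene became 2 over terms with p under 0.05, 1.5 without the defining terms and 1 over terms of at most 100 background genes. The 120 complex genes named became 55 when only transport genes count. With 100 bases before the start in place of 250, TGACG was in 24.6% of transport promoters, TGCGCA in 8.21%, CCAAT in 19.4% and the TATA box in 0.746% (1 promoter in place of 2), and the shorter window by construction holds fewer matches.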

Other observations

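The transport genes covered a median of 54144 bases of the genome from start to end, beside 35661 for all 2646 named genes, 36064 for the 61 ER to Golgi genes and 25020 for the 54 autophagy genes. The medians of the longest transcript were closer, at 3995 bases for transport genes and 3756 for all named genes. These are descriptions of 1 gene list, with no test. Chromosome 1 held 19 of the 166 genes (11.4%, beside 10.9% of all named genes). Chromosome 13 held 1 (0.602%) and chromosome 18 held 0, and these chromosomes held only 1.47% and 1.32% of all named genes.

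Some pairs of transport genes that lie close together are given as examples. Such pairs were not counted among all named genes, so closeness is not read as a trait of these genes. AP1G1, an adaptor subunit, and IST1, of the ESCRT-III group, lie 36795 bases apart on chromosome 16 on opposite strands. SNX21 and CTSA lie 46869 bases apart on chromosome 20, PDCD6 and EXOC3 89302 bases apart on chromosome 5, and EHD1 and SNX15 139112 bases apart on chromosome 11.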
